A study of Homo sapiens with 12 samples.

Results

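The knock-down of GLE1 was compared directly with the knock-down of IPPK, array against array, with no control array in the contrast. The 6 arrays labelled GLE1 siRNA or IPPK siRNA were taken from the 12 arrays of the study, 3 for each siRNA, and were paired by the number in their labels, which is also the slide they shared. Each of the 27522 gene names on the array was represented by its brightest probe, and the 19997 that were well above background on all 3 arrays of either siRNA were tested. GLE1 and IPPK act in one pathway, and the question of the comparison is which cytoplasmic mRNAs tell the loss of GLE1 from the loss of the kinase that makes its ligand.

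All arrays carried cytoplasmic RNA of U2OS, a human osteosarcoma cell line, transfected with 20 nM siRNA by Lipofectamine and cultured for 48 h. The groups of the study were control siRNA, DBP5 siRNA, GLE1 siRNA and IPPK siRNA, with 3 one-colour Agilent arrays each, and all shared the cell line, the transfection and the fractionation. The methods list a pair of siRNAs each for GLE1 and IPPK, and which of the pair was used for the arrays is not given in the sources used here. The methods call the replicates independent array experiments, but nothing in the labels ties them to separate cultures, so p-values measure the spread between these arrays, which may be technical.

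GLE1 sits at the cytoplasmic face of the nuclear pore, where it activates the DEAD-box RNA helicase DBP5 (gene names DDX19A and DDX19B) to strip export factors from an mRNA that has just passed through. Inositol hexakisphosphate, IP6, binds GLE1 and strengthens this activation. IPPK, inositol-pentakisphosphate 2-kinase, adds the last phosphate of IP6, and IP6 also serves other proteins and is the precursor of the inositol pyrophosphates. GLE1 has further roles in translation and stress granules.

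The siRNA antisense strands are shown, as listed by the authors, because the siRNAs are what set the groups apart. They are written 5′ to 3′ with bases 2 to 8 in capitals, the seed of a guide that starts at base 1 of the strand.
GLE1 siRNA 1: uUCUCUUGgugucccaaggcuucuc
GLE1 siRNA 2: gUUGAGAAucuuugcucugugacggug
IPPK siRNA 1: uUGCUGAUcugcuuccacuucccaguu
IPPK siRNA 2: aAUAAACCcacauuuuggcuu
Bases 2 to 8 differed among the 4 listed strands. Strands of 25 or 27 bases may be trimmed in the cell before use as a guide. The seeds actually used are therefore not known, nor whether the GLE1 and IPPK siRNAs shared any. Whether transcripts matched by a seed contributed to the differences was not tested.

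The share of probes well above background was 73.4% to 77.0% on the GLE1 arrays and 70.9% to 73.8% on the IPPK arrays, and no gene spot was saturated. Pearson's r between arrays, across genes, was 0.9968 to 0.9971 within GLE1 siRNA, 0.9953 to 0.9969 within IPPK siRNA and 0.9713 to 0.9742 between them. Each siRNA occupied the same position on every slide, so siRNA and array position cannot be told apart. Of the markers of the cell line, 7 of 8 were measured (COL1A1, COL5A1, CDH2, RUNX2, SPARC, TWIST1 and VIM), while SNAP25 and RBFOX3, used as neural markers, were also above background on every array, one lower (-2.55) and one higher (0.56) with GLE1 siRNA. In bulk RNA of this kind, fewer cells of a type and less RNA per cell cannot be told apart.

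Each knock-down was visible in its own target. For GLE1 (NM_001499) the log2 normalised intensities were 5.41, 4.85 and 4.72 on the GLE1 arrays and 7.70, 7.88 and 7.85 on the IPPK arrays, against 8.29, 8.32 and 8.26 with control siRNA. The difference between the knock-downs, written throughout as GLE1 siRNA minus IPPK siRNA on the log2 scale, was -2.82 ± 0.16 (SE), and GLE1 was 7.06-fold lower with its own siRNA (adjusted p = 6.34e-07, limma with a slide block and Benjamini-Hochberg adjustment, as for all adjusted p-values here). For IPPK (NM_022755) the values were 9.21, 9.08 and 9.07 on the GLE1 arrays, 6.94, 6.95 and 7.05 on the IPPK arrays and 9.32, 9.43 and 9.47 on the control arrays, a difference of 2.14 ± 0.066 (adjusted p = 2.55e-08). The groups did not overlap for either target. GLE1 was dim after its own siRNA, and its fold was smaller, 2.89 and 2.82, with normexp background correction and in the processed values of the authors. A second IPPK probe gave a difference of 2.06.

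The DBP5 genes differed in opposite directions. DDX19A read 11.92, 11.89 and 11.87 on the GLE1 arrays and 11.05, 11.07 and 11.03 on the IPPK arrays, and DDX19B read 9.22, 9.14 and 9.08 and 10.03, 9.95 and 9.96. DDX19A was thus higher by 0.84 ± 0.043 and DDX19B lower at -0.84 ± 0.042 (adjusted p = 3.57e-07 and 2.95e-07), and neither pair of groups overlapped. Both lay below the control mean with both siRNAs, at 0.541 and 0.301 of control for DDX19A and 0.490 and 0.874 for DDX19B, after GLE1 and IPPK siRNA respectively. The transcripts of DDX19A and DDX19B are nearly identical, so how far each probe reads its own gene is uncertain.

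The 2 knock-downs left clearly different cytoplasmic RNA. At an adjusted p of 0.05, 6644 genes (33.2% of those tested) were higher and 6650 (33.3%) lower with GLE1 siRNA than with IPPK siRNA. With a 2-fold limit 1266 genes (6.33%) were higher and 1446 (7.23%) lower, and at 8-fold 53 and 33. The median difference over all genes was 0.025, with 5% of genes below -1.19 and 5% above 1.13, and the median SE was 0.075. The count past 2-fold depended on the treatment of background, with 727 higher and 812 lower after normexp correction and 719 and 789 in the processed values of the authors. Of the 230 genes with a value in the text, 41 moved by over 1.5-fold with normexp, all toward no difference, with no change of sign and no call lost among the 41, and their normexp folds are given beside them. All 3 GLE1 arrays lay above all 3 IPPK arrays for 6979 genes and below them for 6986, and for 6032 genes the groups overlapped. Where arrays were scaled to their E1A spike-in spots, which measure RNA added from outside the cell, the median of all genes moved to -0.30 and the calls on the higher side from 6644 of 13294 to 20.5% of all calls (2-fold, from 46.7% to 19.9%), so directions below are relative to the bulk of genes unless the spike-in value is given.

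**Figure D1:**
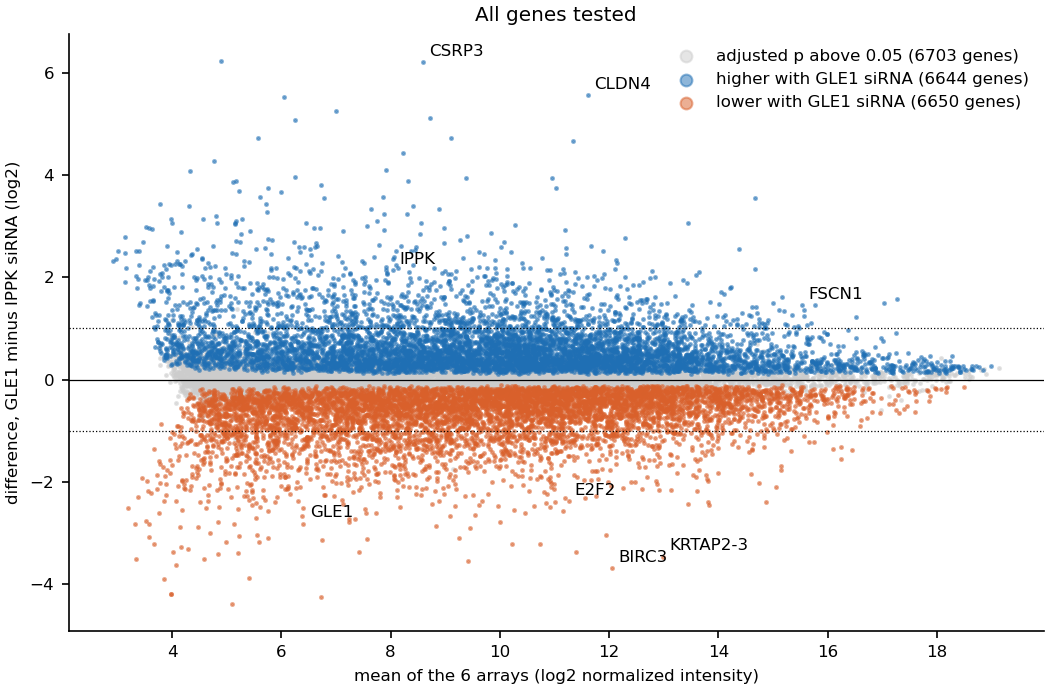
Difference between the knock-downs for each of the 19997 genes (vertical axis, GLE1 siRNA minus IPPK siRNA, log2) against the mean of the 6 arrays (horizontal axis, log2 normalised intensity), with dotted lines at 2-fold. Blue points are the 6644 genes that passed limma as higher, orange points the 6650 that passed as lower, and both colours span the whole range of intensities.

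The control arrays, which did not enter the contrast, place these genes. For these classes a group mean within 1.5-fold of the control mean is called near control. Of the 1266 genes at least 2-fold higher with GLE1 siRNA, 516 (40.8%) were above control after the GLE1 knock-down and near it after the IPPK knock-down, 390 (30.8%) were near control after the GLE1 knock-down and below it after the IPPK knock-down, and 202 (16%) lay on opposite sides. Of the 1446 genes at least 2-fold lower, 762 (52.7%) were below control after the GLE1 knock-down only, 328 (22.7%) were above control after the IPPK knock-down only, and 172 (11.9%) lay on opposite sides. Thus the largest class in the lower direction was a loss seen with GLE1 siRNA, while the higher direction was split between gains with GLE1 siRNA and losses with IPPK siRNA. Both positions use the same 3 control arrays.

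**Figure D2:**
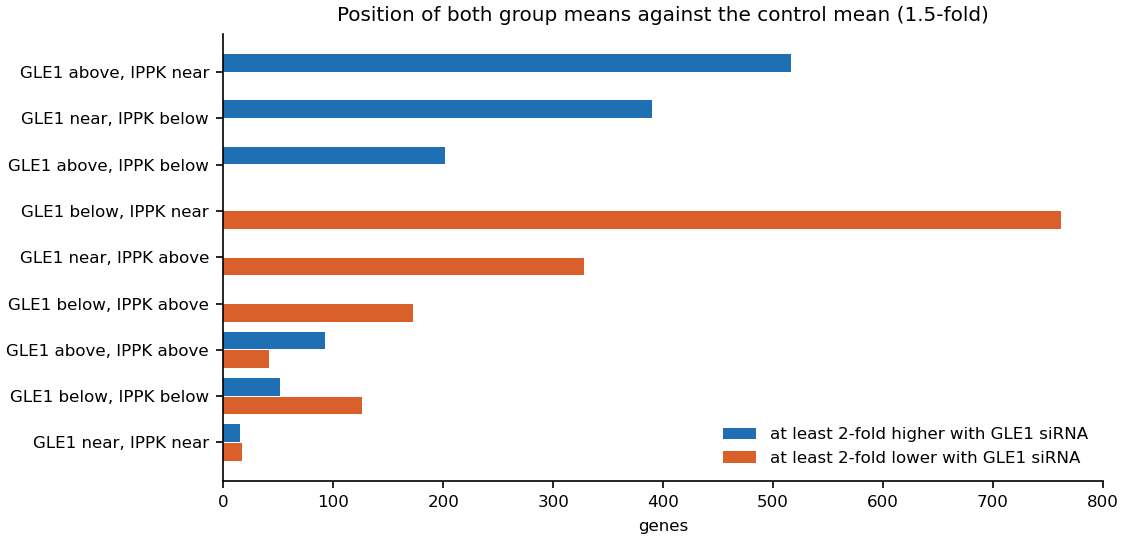
Number of genes (horizontal axis) at least 2-fold higher (blue) or lower (orange) with GLE1 siRNA than with IPPK siRNA, by where the means of both groups lay against the control mean at a 1.5-fold limit. The longest bar is the 762 genes that were below control with GLE1 siRNA and near it with IPPK siRNA, followed by the 516 that were above control with GLE1 siRNA and near it with IPPK siRNA.

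The genes with the largest rises included muscle, epithelial and secreted products. CSRP3, the muscle LIM protein, read 11.54, 11.77 and 11.79 on the GLE1 arrays and 5.35, 5.61 and 5.53 on the IPPK arrays, with control arrays at 8.38, 8.41 and 8.37, so that the knock-downs moved apart from the control in opposite directions. The difference was 6.20 ± 0.077, which is 73.7-fold (adjusted p = 1.15e-09). CLDN4, a claudin of tight junctions, showed the same arrangement with 14.36, 14.43 and 14.37 against 8.61, 8.90 and 8.97 and 11.12, 11.16 and 11.14 in the control, a 47.1-fold difference. FOXS1, a forkhead factor, was 21.5-fold higher, AQP1, the water channel, 25.4-fold, RGS9, a regulator of G-protein signalling, 14.7-fold and TRIM29 13.9-fold, each above control with GLE1 siRNA and below it with IPPK siRNA. With normexp the folds were 29.6 for CSRP3, 11.7 for FOXS1, 8.22 for RGS9 and 5.21 for TRIM29. The second AQP1 probe gave a smaller difference of 1.14.

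A second set stood near control with IPPK siRNA and above it with GLE1 siRNA. HSPB3, a small heat shock protein of muscle, read 11.30, 11.38 and 11.16 against 6.24, 5.98 and 6.30 (34.5-fold), with control at 5.64, 6.03 and 5.71. CCL4, a chemokine, read 11.44, 11.45 and 11.53 against 6.89, 6.74 and 6.61 (26.5-fold), and its second probe gave 4.77. SLN, sarcolipin, which inhibits the calcium pump of the sarcoplasmic reticulum, was 15.3-fold higher and 21.3-fold above control with GLE1 siRNA. With normexp, HSPB3 and CCL4 were 17.6 and 17.2-fold higher. On the DBP5 arrays, which are outside the contrast, HSPB3 read 8.80, 8.81 and 8.76 and SLN 8.77, 8.87 and 8.62, also above control. ANXA8L1, an annexin gene with near-identical copies and therefore uncertain, was 15.3-fold higher.

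TNNT2 and IL11 differed mainly by a loss with IPPK siRNA. TNNT2, cardiac troponin T, read 10.03, 10.00 and 9.89 on the GLE1 arrays, 5.90, 5.88 and 5.83 on the IPPK arrays and 9.05, 8.86 and 8.94 on the control arrays, 17.1-fold between the knock-downs (7.73-fold with normexp). IL11, a cytokine of the IL-6 family, read 12.93, 12.84 and 12.89, 9.21, 9.11 and 9.13 and 12.06, 12.18 and 11.88 in the same order (13.3-fold). In all 12 genes named among the rises the GLE1 and IPPK arrays did not overlap, and the largest adjusted p was 1.37e-07.

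Epithelial markers moved with this direction. CDH1, E-cadherin, read 6.39, 6.94 and 7.01 against 4.47, 4.79 and 5.07 and was well above background on 2 of 3 IPPK arrays and on no control array (1.87-fold higher with normexp). KRT19 was higher by 1.35 ± 0.074 and KRT8 by 0.91 ± 0.085 (other KRT8 probes 0.66 and 0.24, and KRT19 1.66-fold in the processed values of the authors), and EPCAM did not pass at 0.48 (adjusted p = 0.0534, but 0.65 with adjusted p = 0.0233 without replicate 3 of IPPK siRNA and 0.21 with adjusted p = 0.199 without replicate 1). EPCAM also passed with normexp, in the processed values of the authors and in the 6 arrays alone (adjusted p = 0.0307 to 0.0387). KRT18 was higher by 0.21 but lower, at -0.09, under the spike-in scaling. In all, 4 of 5 epithelial markers passed as higher (80%, against 33.2% over all genes). Without CDH1, which entered the test through the GLE1 arrays, it was 3 of 4. The median of the 5 stood at 0.999 of control with GLE1 siRNA and 0.584 with IPPK siRNA. Among the mesenchymal markers COL1A1, COL5A1, CDH2 and RUNX2 were higher (57.1% of those measured) and none lower. Of the blood markers, PTPRC and CD3E were measured and neither passed. The part of other cells in the leading genes was not tested.

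The largest falls were led by ZNF876P, a zinc finger pseudogene, at 4.47, 4.61 and 4.70 on the GLE1 arrays and 8.66, 8.91 and 8.96 on the IPPK arrays, 19-fold lower with GLE1 siRNA (5.83-fold with normexp). BIRC3, an inhibitor of apoptosis and NF-kappaB target, read 10.36, 10.11 and 10.14 against 13.89, 13.92 and 13.87 with control at 9.12, 9.14 and 9.06, so that it was above control with both siRNAs, 2.14-fold and 27.6-fold. Its difference of -3.69 ± 0.067 therefore came from a far larger gain with IPPK siRNA. KRTAP2-3, a hair keratin-associated protein gene, at 11.28, 11.26 and 11.24 against 14.75, 14.72 and 14.70, and LOX, lysyl oxidase, which crosslinks collagen, at 8.49, 8.67 and 8.70 against 11.81, 11.83 and 11.84, were likewise mainly raised with IPPK siRNA (7.10-fold and 5.90-fold of control).

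The mean with GLE1 siRNA lay below control in the other leading falls, as it did for KRTAP2-3 and LOX. HAS2, hyaluronan synthase, read 5.73, 5.79 and 5.67 against 8.97, 9.15 and 9.19 with control at 8.22, 8.32 and 8.29, a 10.4-fold fall. SPP1, osteopontin of bone matrix, was 11.8-fold lower, at 0.229 of control with GLE1 siRNA and 2.70-fold of control with IPPK siRNA. STIMATE, a regulator of calcium entry at the endoplasmic reticulum, was 10.4-fold lower. MYB, a transcription factor of proliferating cells, fell to 0.074 of control with GLE1 siRNA and stood at 0.648 with IPPK siRNA (8.71-fold lower). With normexp HAS2 was 4.98, MYB 4.69, MRAP2 3.39 and ZNF204P 2.58-fold lower. By the main values TCEAL2, MRAP2 and the pseudogenes ZNF204P and ZNF252P were 8.58, 8.84, 8.28 and 9.30-fold lower, and no GLE1 array overlapped an IPPK array in any of the 12. A second ZNF252P probe gave -2.29.

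**Figure D3:**
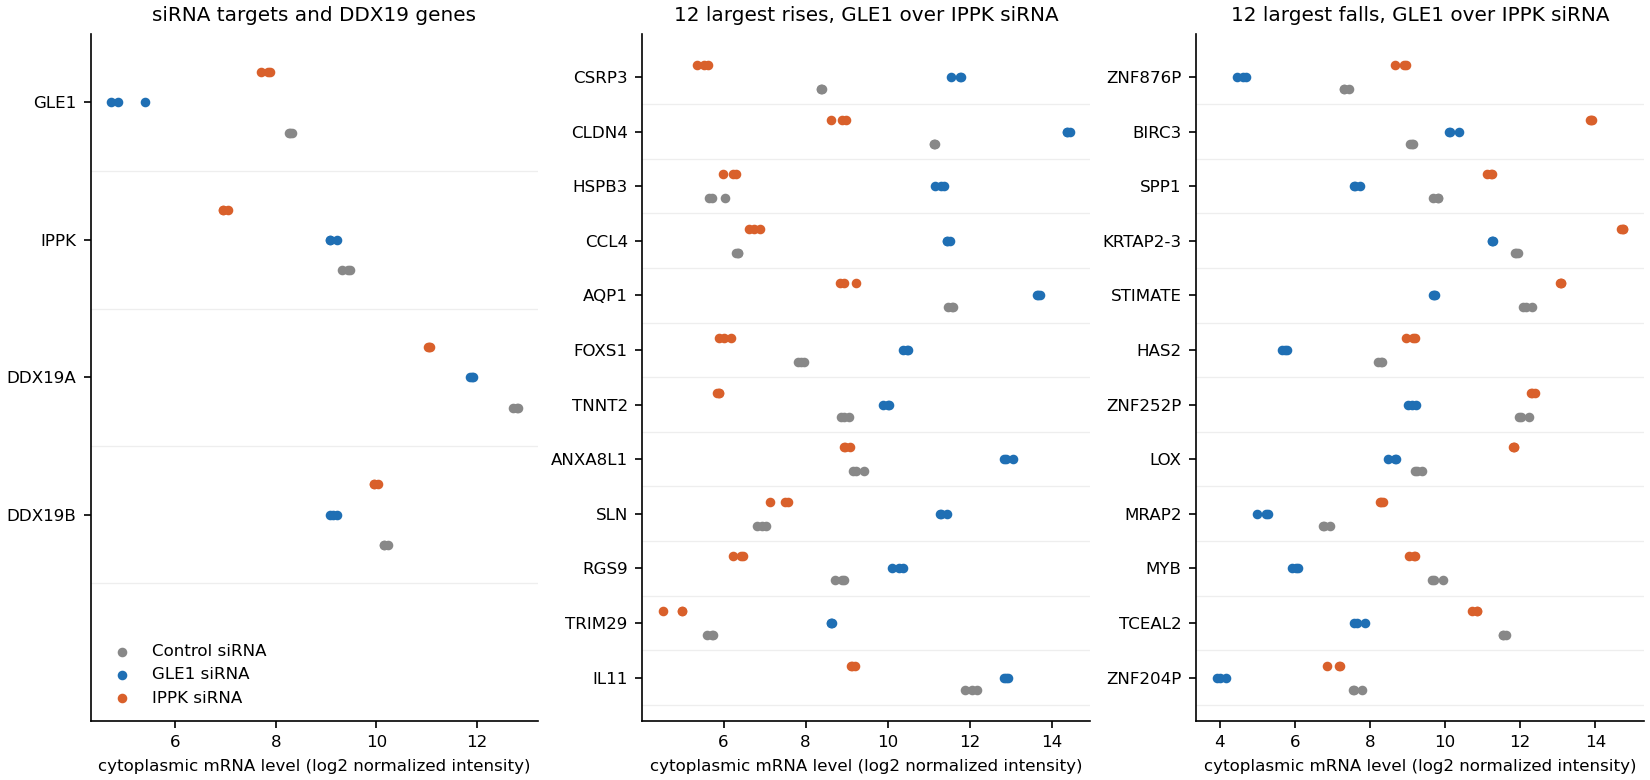
Cytoplasmic mRNA level (horizontal axis, log2 normalised intensity) of the siRNA targets with the DDX19 genes (left), the 12 largest rises (middle) and the 12 largest falls (right), one point an array, 3 arrays a group. CSRP3 shows the GLE1 arrays above and the IPPK arrays below the control arrays, and BIRC3 shows both siRNAs above control with the IPPK arrays far higher.

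Some genes were well above background with one siRNA only, on all 3 of its arrays and on none of the other. There were 283 such genes with GLE1 siRNA and 87 with IPPK siRNA, of which 146 and 54 were well above background on all 3 control arrays. Here a fold change is a lower bound set by the dimmest probe still above background, and for 2 of the 283 it was under 1, so that no fold can be given. Since 1 siRNA brought these genes into the test, their calls were favoured by the filter. No p-value is printed for them, but they are among the counts of calls above. If each of the 6 arrays had to be well above background, a filter chosen after the data were seen, 18556 genes were left, of which 6120 (33.0%) were higher and 6388 (34.4%) lower. With GLE1 siRNA, KLHL30 was at least 28.0-fold higher, CALHM3, a channel subunit, at least 27.4-fold and LY6D, a surface protein of keratinocytes, at least 16.1-fold. With IPPK siRNA, CBLN4, a secreted synaptic protein, was at least 11.7-fold higher, PIP5K1B, a phosphatidylinositol phosphate kinase, at least 8.98-fold and STK38L, a kinase of the NDR family, at least 8.11-fold. These bounds hold on the scale of the processed signal, and with normexp, which keeps dim spots closer together, the differences were 6.52, 5.74 and 5.21-fold for the first 3 and 2.66, 2.24 and 2.20-fold for the others. CBLN4 and STK38L were well above background on all 3 control arrays, and LY6D and PIP5K1B on none.

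DNA replication genes were lower almost throughout after the GLE1 knock-down than after the IPPK knock-down. Of 46 licensing and fork factors, 43 were lower, none was higher and 3 did not pass (POLD1, POLD2 and POLE), with a median difference of -1.02 against 0.025 over all genes, and 24 fell by at least 2-fold. MCM6, a subunit of the replicative helicase, read 10.90, 11.65 and 11.62 on the GLE1 arrays and 13.33, 13.44 and 13.40 on the IPPK arrays (4.0-fold lower), with replicate 1 of GLE1 siRNA the lowest. POLE2, a subunit of DNA polymerase epsilon, read 9.74, 9.49 and 9.55 against 11.55, 11.55 and 11.46, and the control arrays at 11.49, 11.53 and 11.43 overlapped those of IPPK siRNA. ORC1, of the origin recognition complex, was lower at -1.30 ± 0.062 and CDT1, the licensing factor, at -1.28 ± 0.043. MCM2 stood at -0.87 ± 0.067, PCNA, the sliding clamp, at -1.02 ± 0.048 and CDC45 at -1.03 ± 0.05. Against control the list's median was 0.42 with GLE1 siRNA and 0.755 with IPPK siRNA, so the median lay below control with both.

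The enzymes of deoxynucleotide supply followed. Of 13, 10 were lower and RRM2B and SAMHD1 higher, and the median was -0.40. RRM2, the S-phase subunit of ribonucleotide reductase, read 10.48, 10.45 and 10.35 against 11.82, 11.84 and 11.81 (control 12.81, 12.74 and 12.80). TYMS, thymidylate synthase, was lower at -1.38 ± 0.057 and DUT, which removes dUTP, at -1.14 ± 0.10. RRM2B, the subunit induced by p53, was higher by 0.85 ± 0.051, opposite to RRM2. SAMHD1 at 0.20 (adjusted p = 0.0259) lost its call without replicate 2 or 3 of GLE1 siRNA or replicate 1 or 2 of IPPK siRNA (adjusted p = 0.0564 to 0.114). Its call was also lost without the slide block (adjusted p = 0.335). It was -0.17 under the spike-in scaling and -0.037 by the mean of its probes.

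Replication-dependent histone mRNAs were lower as a group. Of 55 measured, 51 were lower, 0 higher and 4 did not pass limma (0 higher also at an unadjusted p of 0.05), with a median of -0.68. H1-1 read 12.18, 12.38 and 12.10 against 14.61, 14.74 and 14.63, and H2BC12 read 15.42, 15.34 and 15.49 against 16.89, 16.71 and 16.72 with control at 16.20, 16.22 and 16.19, above control in the IPPK and below it in the GLE1 knock-down. H3C4 was lower at -1.36 ± 0.099 and H2BC1 at -1.47 ± 0.08 (1.73-fold with normexp). Copies of histone genes are near-identical, so single members are uncertain and the list is better read as a whole.

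The regulators of the G1/S transition did not all move together. Of 28, 18 were lower, 6 higher and 4 did not pass. E2F2, a transcription factor of S-phase genes, read 10.08, 10.14 and 9.98 against 12.36, 12.48 and 12.49 with control at 14.34, 14.54 and 14.40, so that it was below control with both siRNAs and 5.19-fold lower with GLE1 siRNA. CCNE2, cyclin E2, was lower at -2.13 ± 0.065, CDC25A, a phosphatase that activates CDK2, at -1.92 ± 0.074 and CDK6 at -1.90 ± 0.066, and CDK6 stood at 1.35-fold of the control mean with IPPK siRNA. CDK2 read 8.51, 8.70 and 8.67 against 8.62, 8.68 and 8.65, a difference of -0.023 with a 95% interval of -0.14 to 0.094 that did not pass (adjusted p = 0.71), although both groups lay at 0.406 of control. On the higher side were the inhibitor CDKN1A (1.37) and the D-type cyclins CCND1 (0.76) and CCND2 (0.83).

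Promoter windows of these genes are printed because E2F sites are a known element of replication gene promoters. In RefSeq (GRCh38.p14) windows of 300 bases, 250 before and 50 after a start, 4 E2F-like words were searched on both strands (TTTGGCGC, TTTCCCGC, TTTGGCGG and TTTCGCGC, which may overlap each other). They were found in 28 of 54 windows of the replication list (51.9%), in 8.57% of the windows of genes at least 2-fold lower, in 2.37% of those of genes at least 2-fold higher and in 4.56% of the windows of all genes tested that had one. The windows of MCM6 (chr2:135876394-135876693, minus strand) and E2F2 (chr1:23531184-23531483, minus strand) follow with matches in capitals.
MCM6: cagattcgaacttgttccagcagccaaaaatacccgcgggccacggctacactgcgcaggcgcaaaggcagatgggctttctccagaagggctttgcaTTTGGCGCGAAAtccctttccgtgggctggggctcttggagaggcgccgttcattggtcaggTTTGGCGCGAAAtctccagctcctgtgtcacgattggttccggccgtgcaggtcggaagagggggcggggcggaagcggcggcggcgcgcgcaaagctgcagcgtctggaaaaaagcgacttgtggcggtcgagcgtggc
E2F2: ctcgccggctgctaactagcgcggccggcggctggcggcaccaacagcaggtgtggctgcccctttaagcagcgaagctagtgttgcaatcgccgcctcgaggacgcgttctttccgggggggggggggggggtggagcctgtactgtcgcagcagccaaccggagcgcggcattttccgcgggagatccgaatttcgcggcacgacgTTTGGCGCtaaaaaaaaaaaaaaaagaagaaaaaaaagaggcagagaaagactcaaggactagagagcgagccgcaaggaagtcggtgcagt
MCM6 held 4 matches and E2F2 1. A match is a run of letters, and binding was not measured.

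Mitotic genes were also lower with GLE1 siRNA. Of 62 spindle, kinetochore and cytokinesis genes, 58 were lower, MYBL2 was higher (0.35, and lower under the spike-in scaling at -0.028) and FOXM1, KIF20B and KNL1 did not pass, with a median of -0.89. KIZ, kizuna, which keeps the spindle pole intact, read 9.46, 9.34 and 9.35 on the GLE1 arrays and 11.50, 11.47 and 11.37 on the IPPK arrays with control at 10.93, 10.99 and 10.94, above control in the IPPK and below it in the GLE1 knock-down. HMMR, a spindle protein that binds hyaluronan, read 11.08, 10.97 and 10.92 against 13.09, 12.95 and 12.92. CENPF and NDC80, of the kinetochore, were lower at -1.84 ± 0.083 and -1.82 ± 0.064. The kinase PLK1 (-1.07 ± 0.088), the kinase CDK1 (-1.05 ± 0.046), its cyclin CCNB1 (-0.78 ± 0.048) and the motor KIF11 (-1.17 ± 0.062) were all lower. NDC80 stood at 0.265 of control with GLE1 siRNA and 0.937 with IPPK siRNA, and KIF11 at 0.496 and 1.11.

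The HMMR window (chr5:163460382-163460681, plus strand) is shown as an example of the CHR-like words TTTGAA and TTCGAA, searched on both strands. They were present in 43 of 68 windows of the mitotic list (63.2%) and 2 of 54 of the replication list (3.70%), against 12.6% of the windows of all genes tested, 14.6% for genes at least 2-fold lower and 12.9% for those at least 2-fold higher.
HMMR: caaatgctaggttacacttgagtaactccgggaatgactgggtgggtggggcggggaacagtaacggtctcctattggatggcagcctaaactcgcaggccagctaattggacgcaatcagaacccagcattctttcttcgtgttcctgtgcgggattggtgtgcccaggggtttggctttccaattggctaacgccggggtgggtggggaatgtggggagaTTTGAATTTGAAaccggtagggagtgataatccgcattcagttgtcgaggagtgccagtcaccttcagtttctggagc
The capitals hold 2 matches side by side, close to the start.

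Centrosome genes were more divided. Of 36, 24 were lower and 7 higher, with a median of -0.49. CEP290, of the ciliary transition zone, read 7.42, 7.37 and 7.40 against 9.13, 9.16 and 9.13 with control at 8.08, 8.52 and 8.02, so that the IPPK arrays lay above control. CEP97, CEP192 and CEP295 were lower at -1.56, -1.21 and -1.18, with means over the control mean with IPPK siRNA (1.40, 1.18 and 1.26-fold) and below it with GLE1 siRNA. CEP170 (0.96), TUBGCP4 (0.85) and ODF2 (0.76) were higher.

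DNA repair and checkpoint genes took the same direction as replication. Of 41 genes of homologous recombination, the Fanconi pathway and mismatch repair, 35 were lower and 3 higher, with a median of -0.79. FANCD2, of the Fanconi pathway, read 8.54, 8.64 and 8.62 against 10.20, 10.30 and 10.20, and HELLS, a chromatin remodeller, was lower at -1.55 ± 0.058. Of 21 checkpoint genes 18 were lower and 1 higher, with a median of -0.75. CLSPN, CDC25A and CDC25C are also members of the replication, G1/S and mitotic lists respectively, so the lists are not independent. CHEK1, the checkpoint kinase, read 10.57, 10.60 and 10.49 against 11.76, 11.78 and 11.76, CDC25C was lower at -1.26 ± 0.061 and PKMYT1, which inhibits CDK1, at -1.22 ± 0.05. ATR, the kinase above CHEK1, was lower at -0.47 ± 0.047, yet above control with both siRNAs (1.73-fold and 2.39-fold).

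Targets of p53 moved the other way. Of 29 measured, 22 were higher, TNFRSF10B and MDM2 lower and 5 did not pass, with a median of 0.54 (0.16 under the spike-in scaling). Without TNFRSF10D, which entered the test through the GLE1 arrays, 21 of 28 were higher with a median of 0.49. The median of the 29 stood at 1.93 of control with GLE1 siRNA and 1.49 with IPPK siRNA, above control with both. GDF15, a stress-induced cytokine, read 14.70, 14.68 and 14.72 against 12.71, 12.55 and 12.54 with control at 13.40, 13.35 and 13.29, above control in the GLE1 and below it in the IPPK knock-down. CDKN1A, the p21 inhibitor of cyclin-dependent kinases, read 11.61, 11.36 and 11.36 against 10.10, 10.06 and 10.08 with control at 9.51, 9.31 and 9.37, so that it was above control with both. PPM1D, a phosphatase that feeds back on p53, was higher by 1.26 ± 0.068, and its second probe gave 0.75. TNFRSF10D, a decoy receptor of TRAIL, was not well above background on any IPPK array and at least 1.38-fold higher (1.18-fold with normexp). MDM2, the ubiquitin ligase of p53, at -0.19 ± 0.067, and TNFRSF10B, a TRAIL receptor, at -0.64 ± 0.059, went against the list. The call of MDM2 was lost without replicate 1 or 3 of GLE1 siRNA or replicate 2 or 3 of IPPK siRNA (adjusted p = 0.0808 to 0.134), without the slide block (0.0855), with normexp (-0.073, adjusted p = 0.488) and in the processed values of the authors (-0.051, adjusted p = 0.613).

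In the BCL2 family, 10 of 18 were higher and 3 lower, with a median of 0.22 (-0.15 under the spike-in scaling). BMF (1.33 ± 0.10) and BIK (1.21 ± 0.051), which promote apoptosis, were higher, and so was BCL2L1 (0.79 ± 0.09), which opposes it. BNIP3L, a mitophagy receptor, was higher by 1.04 ± 0.067, and its second probe gave 0.49. Those lower were BCL2 (-0.58), BCL2A1 (-0.62) and BNIP3 (-0.32).

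Cytokines and chemokines were mostly higher with GLE1 siRNA, with 19 of 27 higher and 5 lower and a median of 0.58 (0.21 under the spike-in scaling). Over the 24 members well above background on all 6 arrays, 16 were higher and 5 lower with a median of 0.38. The median of the 27 stood at 1.03 of control with GLE1 siRNA and 0.748 with IPPK siRNA. IL6 read 9.05, 9.33 and 9.29 on the GLE1 arrays and 7.03, 7.08 and 7.04 on the IPPK arrays with control at 8.62, 8.84 and 8.68. IL1A read 8.10, 8.31 and 8.32 against 5.91, 6.16 and 6.14 with control at 8.51, 8.65 and 8.70, so that its difference was a loss with IPPK siRNA. TNF was well above background on 2 of 3 IPPK arrays and read 6.46, 6.48 and 6.54 against 4.64, 4.79 and 4.40. With normexp IL1A and TNF were 2.79 and 1.72-fold higher. CXCL8 was higher by 1.61 ± 0.07 and CCL2 by 1.49 ± 0.062. The lower members were IL7 (-1.72), CCL20 (-1.59), CXCL3 (-1.31), CXCL2 (-0.89) and CXCL1 (-0.43), so the CXC chemokines were split, with CXCL5 (1.40) and CXCL8 on the other side. CXCL1 was smaller, at -0.29, without replicate 1 of IPPK siRNA, and did not pass without the slide block (adjusted p = 0.0524), with normexp (-0.12, adjusted p = 0.0779) or by the mean of its probes (-0.34, adjusted p = 0.214).

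NF-kappaB genes showed no shared direction, with 14 of 31 higher (45.2%, against 33.2% over all genes) and 13 lower (41.9%, against 33.3%). The median was 0.0095 (-0.37 under the spike-in scaling). TNFAIP2 (1.64 ± 0.053), the inhibitor NFKBIE (1.32 ± 0.051), the kinase IKBKE (1.28 ± 0.10) and the adaptor TRAF3 (1.24 ± 0.058) were higher. BIRC3, the protease PLAU (-1.52 ± 0.084) and NFKBIZ (-1.45 ± 0.048), a nuclear IkappaB, were lower. TRAF3 was below control with both siRNAs (0.660 and 0.280).

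The interferon list was divided. Of 43, 21 were higher (48.8%, against 33.2% over all genes) and 15 lower (34.9%, close to the 33.3% over all genes). The median was 0.16 (-0.19 under the spike-in scaling). IFIT1, an antiviral RNA-binding protein, read 7.18, 7.26 and 7.17 against 8.77, 9.06 and 8.89 with control at 8.86, 9.01 and 8.85 (-1.70 ± 0.061), and the RNA sensors TLR3 (-1.04 ± 0.086) and IFIH1 (-1.02 ± 0.086) were lower too. On the higher side were genes of antigen presentation, TAP2 (1.47 ± 0.094), HLA-B (1.10 ± 0.15) and HLA-C (0.71 ± 0.07), of which the HLA probes may cross-read. The immunoproteasome subunits PSMB9 (-0.76 ± 0.061) and PSMB8 (-0.47 ± 0.06) were lower. TAP2 was above control with both siRNAs, 4.69-fold and 1.69-fold.

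Extracellular matrix genes were among those higher after the GLE1 knock-down. Of 51, 34 were higher, 5 lower and 12 did not pass, with a median of 0.56 (0.23 under the spike-in scaling). Of the 46 well above background on all 6 arrays, 31 were higher and 5 lower with a median of 0.62. COL1A1, the main collagen of bone, read 12.48, 12.62 and 12.72 on the GLE1 arrays and 10.71, 10.48 and 10.59 on the IPPK arrays with control at 12.56, 12.53 and 12.65, so that the GLE1 arrays overlapped the control and the IPPK arrays lay below. LUM, lumican, read 9.64, 9.73 and 9.90 against 7.11, 7.18 and 7.19 with control at 6.45, 6.61 and 6.57. It was thus above control with both siRNAs and much further above with GLE1 siRNA. COL16A1 was higher by 2.58 ± 0.063, though its second probe gave 0.46, and the collagenase MMP13, well above background on 1 of 3 IPPK arrays, read 6.61, 6.87 and 7.06 against 3.34, 3.96 and 3.84 (2.47-fold higher with normexp). LAMC1 (2.19), MMP2 (2.02) and LOXL4 (1.80) were higher, whereas LOX, MMP3 (-1.56), COL13A1 (-1.45), COL6A3 (-0.61) and MMP14 (-0.51) were lower. LOX and its paralogues LOXL1 (1.14), LOXL2 (0.71), LOXL3 (0.85) and LOXL4 thus lay on opposite sides.

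Genes of adhesion and the actin cytoskeleton behaved likewise, with 37 of 57 higher and 8 lower and a median of 0.49 (0.12 under the spike-in scaling). FLNC, a filamin of muscle, read 12.03, 11.93 and 12.02 against 9.78, 9.87 and 9.90 with control at 9.85, 9.78 and 9.84. FSCN1, fascin, which bundles actin, read 16.29, 16.24 and 16.23 against 14.61, 14.87 and 14.92 with control at 16.69, 16.63 and 16.70, a loss with IPPK siRNA. ITGA3 and ITGA7, laminin-binding integrins, were higher by 1.65 ± 0.07 and 1.63 ± 0.12. The focal adhesion kinase PTK2 was higher by 1.39 ± 0.066. ITGB4 (-1.44), ITGA2 (-1.33, 1.62-fold with normexp), TPM3 (-1.21) and ACTA2 (-1.01) led the 8 that were lower.

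In the TGF-beta and BMP pathway 22 of 40 were higher and 9 lower, with a median of 0.30 (-0.05 under the spike-in scaling). Of the 38 well above background on all 6 arrays, 21 were higher and 8 lower. The ligand TGFB2 read 10.19, 10.24 and 10.32 against 8.02, 8.18 and 8.20 with control at 8.09, 8.08 and 8.18. The receptor TGFBR1, well above background on 2 of 3 GLE1 arrays, was lower at -1.83 ± 0.16 (1.44-fold with normexp). The signal transducer SMAD3 read 11.47, 11.51 and 11.48 against 10.18, 10.16 and 10.18 with control at 11.53, 11.52 and 11.56, a loss with IPPK siRNA, and the pseudoreceptor BAMBI was higher by 1.18 ± 0.093. Ligand and transducer were thus higher, while the receptor, which entered the test through the IPPK arrays, was lower.

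In the hedgehog pathway 6 of 17 were higher and 5 lower (median -0.015), shares of 35.3% and 29.4% close to the 33.2% and 33.3% over all genes. The median changed sign under 10 of the alternatives and reached 0.094. The co-receptors GAS1 (-1.58 ± 0.066) and CDON (-1.50 ± 0.082), the transducer SMO (-1.32 ± 0.045) and the factor GLI3 (-0.56 ± 0.048) were lower. SMO read 10.12, 10.16 and 10.18 against 11.51, 11.45 and 11.45 with control at 11.07, 11.03 and 11.01, above control in the IPPK and below it in the GLE1 knock-down. The receptor PTCH1 (1.35 ± 0.13) and the factor GLI1 (0.48 ± 0.11), both known targets of the pathway, were higher. The second PTCH1 probe gave 0.64, and GLI1 was below control with both siRNAs (0.356 and 0.255). With normexp GAS1 and CDON were 1.99 and 1.74-fold lower and PTCH1 1.5-fold higher.

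Among AP-1 and immediate-early genes, 12 of 24 were higher (50%, against 33.2% over all genes) and 8 lower (33.3%, the same share as over all genes). The median was 0.10 (-0.20 under the spike-in scaling). DUSP1 (1.32 ± 0.051), ATF3 (0.91 ± 0.053) and MYC (0.78 ± 0.047) were higher. DUSP6, a phosphatase and target of ERK signalling, read 10.17, 10.20 and 9.89 against 11.83, 11.66 and 11.61 with control at 12.48, 12.45 and 12.62, and EGR1 was lower at -1.11 ± 0.058.

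Stress and folding programmes were lower with GLE1 siRNA than with IPPK siRNA. Of 36 ATF4 targets and genes of the unfolded protein response, 22 were lower and 6 higher, with a median of -0.46. ASNS, asparagine synthetase, read 13.71, 13.67 and 13.64 against 15.47, 15.54 and 15.57 with control at 14.89, 14.96 and 14.87, so that the groups lay on either side of control, and SLC7A11, the cystine carrier, read 9.48, 9.92 and 9.97 against 11.52, 11.80 and 11.79 with control at 10.90, 11.05 and 10.88. CHAC1, which degrades glutathione, was lower at -1.80 ± 0.052 and PSAT1, of serine synthesis, at -1.77 ± 0.045. DDIT3, the CHOP factor, was the exception of largest size, at 10.73, 10.82 and 10.70 against 8.84, 9.87 and 9.90 (1.21 ± 0.21), with replicate 1 of IPPK siRNA the lowest.

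Of 31 heat shock proteins and chaperones, 24 were lower and 3 higher (median -0.31). HSPA1A read 12.83, 12.80 and 12.82 against 14.38, 14.42 and 14.42 with control at 14.85, 14.87 and 14.91, and its near-identical copy HSPA1B differed by -1.26 ± 0.05. The small heat shock proteins CRYAB (2.16 ± 0.079) and HSPB8 (1.74 ± 0.064) and their partner BAG3 (0.33 ± 0.07, -0.06 under the spike-in scaling) were the 3 higher, as was HSPB3 above. Proteasome subunits were lower in 22 of 31 and higher in 3 (median -0.28), and PSMD7, of the lid, by the most (-1.02 ± 0.056).

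The machinery of mRNA export is the pathway of both targets. Of 43 adaptors, receptors and cytoplasmic pore factors, 23 were lower, 7 higher and 13 did not pass, with a median of -0.18. Apart from GLE1 itself, THOC1 (-1.04 ± 0.096), of the THO complex, and the nucleoporin NUP155 (-1.01 ± 0.056) were lower. PCID2, a subunit of the TREX-2 complex, read 15.68, 15.66 and 15.64 on the GLE1 arrays and 13.13, 13.09 and 13.09 on the IPPK arrays with control at 14.76, 14.98 and 14.82, and its second probe gave 2.72. The mRNA export receptor NXF1 was higher by 0.30 ± 0.053, but stood at -0.094 under the spike-in scaling. Of the pore factors, NUP214, which binds DBP5, and NUP42, which binds GLE1, did not pass, with NUP214 at 0.084 (95% interval -0.091 to 0.26) and NUP42 at 0.14 (-0.008 to 0.29) by the main values. NUP42 passed as higher with normexp (adjusted p = 0.0398), in the processed values of the authors (0.0271) and in the 6 arrays alone (0.0483), and as lower by the mean of its probes (-0.48, adjusted p = 6.6e-05) and under the spike-in scaling (-0.25, adjusted p = 0.0319), where NUP214 stood at -0.30.

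Enzymes of inositol phosphate metabolism, the pathway of IP6, went both ways, with 16 of 38 higher (42.1%, against 33.2% over all genes) and 13 lower (34.2%, against 33.3%). The median was 0.11 (-0.27 under the spike-in scaling). Over the 37 well above background on all 6 arrays, 15 were higher and 13 lower. Apart from IPPK, PLCD3 (1.51 ± 0.11), a phospholipase C, and the phosphatase INPP5D (1.21 ± 0.059), which was above control with both siRNAs (5.22-fold and 2.25-fold), were higher. ITPKA, a kinase of inositol trisphosphate, was lower at -1.14 ± 0.045. IPMK, which acts before IPPK, stood at -0.34 (95% interval -0.73 to 0.046) and did not pass, but it passed as lower without replicate 1 of IPPK siRNA (-0.54, adjusted p = 0.0126) and under the spike-in scaling (-0.66, adjusted p = 0.00138). The kinases that use IP6 were split, IP6K1 (0.47) and IP6K3 (1.09) being higher and IP6K2 at -0.46 by its brightest probe but 0.62 by the mean of its probes, and the pyrophosphate kinases PPIP5K2 higher (0.38) and PPIP5K1 lower (-0.73). IP6K3 was 1.39-fold higher with normexp, and its call was lost without replicate 3 of GLE1 siRNA or replicate 1 or 2 of IPPK siRNA (adjusted p = 0.0534 to 0.0563) and without the slide block (0.0619).

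RNA processing and decay were lower in most members that passed. Of 63 splicing factors 40 were lower and 9 higher (median -0.29), with HNRNPA3 (-1.41 ± 0.047) and SNRPF (-1.37 ± 0.048) lower and PTBP3 (1.17 ± 0.1) higher, although the other probes of HNRNPA3 ranged from -1.02 to 0.38. Of 51 exosome and decay factors 31 were lower and 11 higher (median -0.24). UPF3B, of nonsense-mediated decay, read 7.10, 6.96 and 6.74 against 9.28, 9.50 and 9.50 with control at 9.82, 10.05 and 9.87 (3.55-fold lower with normexp). The decapping subunits were opposed, DCP2 at -1.19 ± 0.059 and DCP1A at 1.48 ± 0.072.

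Translation factors had no shared direction, with 18 of 50 higher and 20 lower (median -0.046), shares of 36% and 40% near the 33.2% and 33.3% over all genes. EIF3A, the largest subunit of eIF3, read 13.75, 13.76 and 13.69 against 15.71, 15.78 and 15.80 with control at 15.90, 15.76 and 15.85, while EIF4A2, a helicase, was higher by 0.88 ± 0.053. The release factor ETF1 read 10.26, 11.27 and 11.15 against 11.84, 12.06 and 12.07, with replicate 1 of GLE1 siRNA the lowest. Among stress granule proteins 7 of 28 were higher, YBX3 by the most (0.90 ± 0.09), and 10 lower, such as UBAP2 (-0.62 ± 0.068), shares of 25% and 35.7% that do not stand out from those over all genes. Cytosolic ribosomal protein mRNAs were close together, with 36 of 79 higher, 4 lower, 39 not passing and a median of 0.13 (-0.14 under the spike-in scaling), and the largest of the 79 differences in size was -0.49, for RPL27A. RPL34 (0.38 ± 0.088) was the highest, and these genes have many near-identical copies.

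Mitochondrial ribosomal proteins were lower in 40 of 76 and higher in 10 (median -0.19), MRPS34 (-1.63 ± 0.077) and MRPL42 (-1.42 ± 0.049) against MRPS10 (1.31 ± 0.059). Of the 75 well above background on all 6 arrays, 39 were lower and 10 higher. Nuclear-encoded subunits of oxidative phosphorylation were lower in 29 of 74 (39.2%, against 33.3% over all genes) and higher in 12 (median -0.072), and UQCRC2 (0.95 ± 0.052) was the highest. Glycolysis genes were higher in 12 of 22 and lower in 4, with a median of 0.21 (-0.14 under the spike-in scaling). The glucose carrier SLC2A3 read 9.52, 9.51 and 9.61 against 7.74, 7.68 and 7.82 with control at 8.43, 8.51 and 8.37, and ENO2 (1.31 ± 0.087) and PFKP (1.26 ± 0.05) were higher.

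Cholesterol synthesis genes were higher in 16 of 31 and lower in 7, with a median of 0.25 (-0.10 under the spike-in scaling). MSMO1 read 11.35, 11.44 and 11.40 against 10.03, 9.94 and 9.95 with control at 10.28, 10.23 and 10.20, HMGCS1 was higher by 1.36 ± 0.055 and the regulator SREBF2 by 1.08 ± 0.099. DOLK, dolichol kinase, was higher by 1.12 ± 0.05, while NUS1, a subunit of the enzyme that makes dolichol, did not pass (-0.11, adjusted p = 0.0524) and its other probes gave 0.17 and -0.17. NUS1 did pass as lower under the 75th percentile, quantile and spike-in scalings, with normexp, in the processed values of the authors and without replicate 3 of GLE1 siRNA (-0.51 to -0.13, adjusted p = 0.00122 to 0.0493). Lysosomal genes were higher in 13 of 32 (40.6%, against 33.2% over all genes) and lower in 5 (15.6%, against 33.3%). Their median was 0.13 (-0.25 under the spike-in scaling). MAP1LC3B (1.25 ± 0.068), an autophagosome protein, was the highest.

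Of 18 HIF factors and hypoxia targets, 9 were lower and 4 higher (median -0.13). Of the 17 well above background on all 6 arrays, 9 were lower and 3 higher. HIF1AN, which inhibits HIF, read 6.77, 6.64 and 6.55 against 8.81, 9.06 and 9.0 with control at 8.72, 8.78 and 8.87 (3.29-fold lower with normexp), and EPAS1, HIF-2alpha, read 12.09, 11.87 and 11.86 against 13.55, 13.50 and 13.47 with control at 13.09, 12.74 and 12.86. HIF1A was higher by 0.34 but stood at -0.06 under the spike-in scaling. NRF2 targets were called about as often as all genes (34.6% higher and 38.5% lower, against 33.2% and 33.3%), with 9 of 26 higher, such as ABCC1 (1.35 ± 0.07), and 10 lower, such as AKR1B10 (-0.85 ± 0.085). Of 12 metallothionein genes with their regulators, 6 were lower (50%, against 33.3% over all genes) and 3 higher (25%, against 33.2%). Of the 11 well above background on all 6 arrays, 6 were lower and 3 higher. MT1X (-0.39 ± 0.05) was the lowest, although its second probe gave 0.06.

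A list of non-coding RNAs that mixes nuclear RNAs with hosts of snoRNAs was higher in 7 of 10 members with 0 lower by limma (0 also at an unadjusted p of 0.05), with a median of 0.46 (0.08 under the spike-in scaling). SNHG1 read 15.43, 15.36 and 15.41 against 14.02, 13.97 and 13.93 with control at 14.52, 14.57 and 14.43 and GAS5 16.88, 16.87 and 16.84 against 16.03, 15.82 and 15.82. Both are hosts of snoRNAs with a spliced product that reaches the cytoplasm, so these members are not markers of nuclear RNA in the fraction. MALAT1, a nuclear speckle RNA, read 8.42, 7.64 and 8.54 against 7.91, 7.17 and 7.27, an overlapping range despite an adjusted p of 0.0109 (0.39 and no longer passing under the spike-in scaling), and lay below control with both siRNAs (0.798 and 0.474). RN7SK, RMRP and SCARNA2 did not pass. Differences in the purity of the fraction were not tested.

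**Figure D4:**
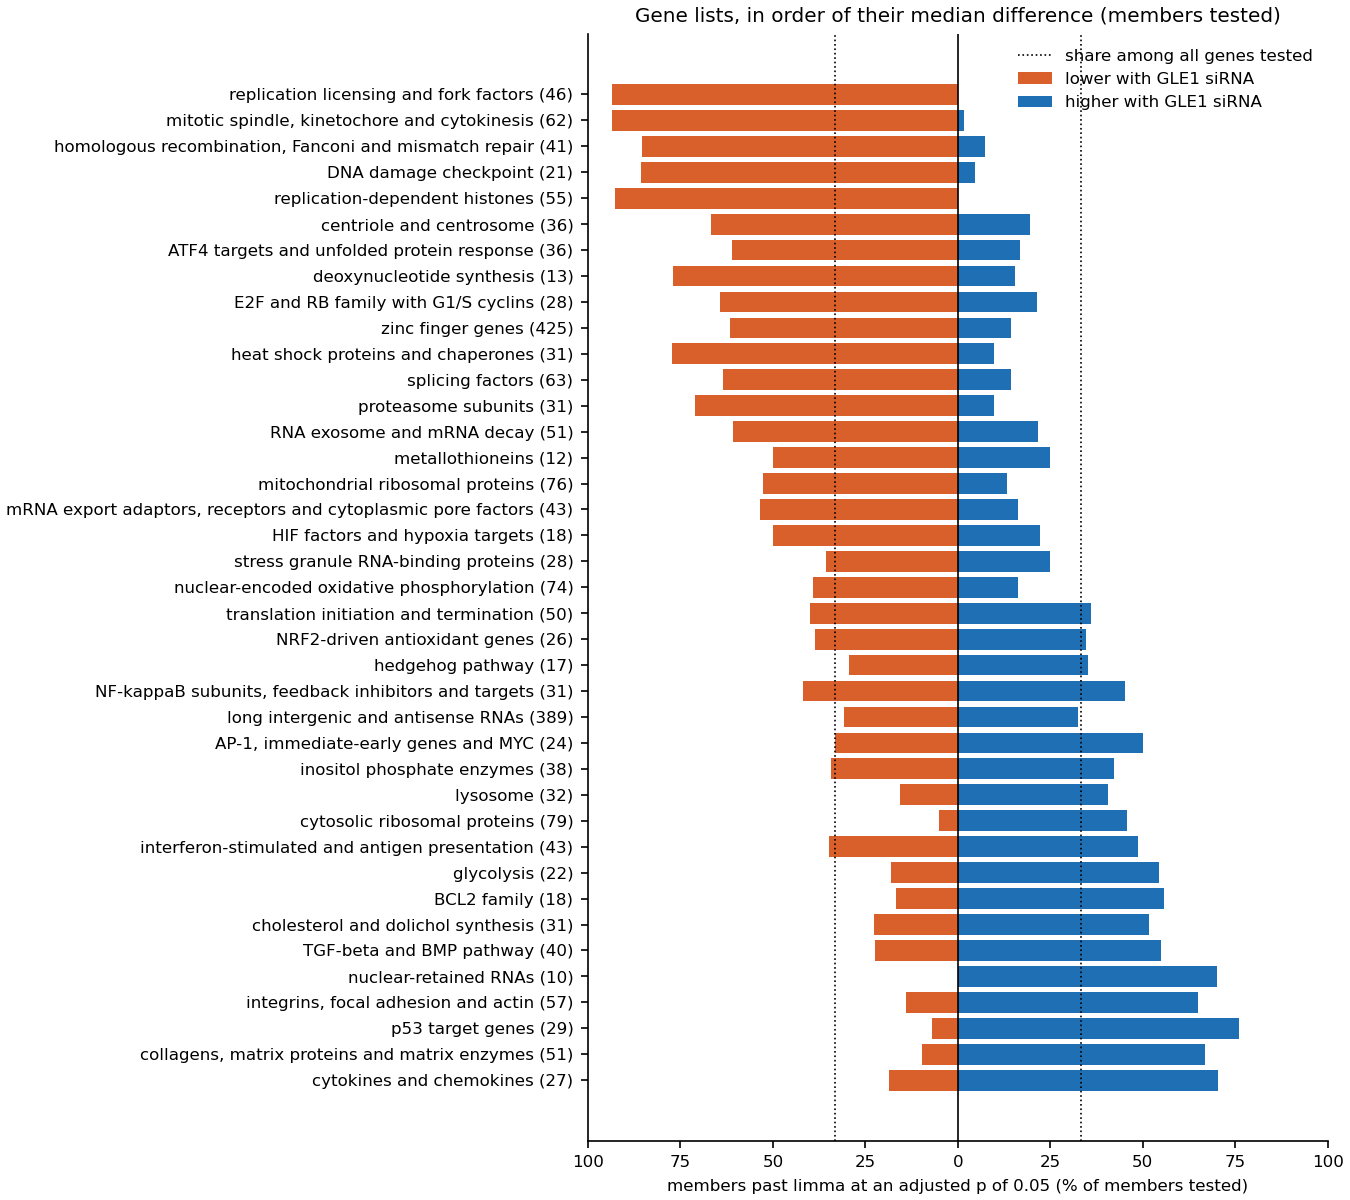
Share of the measured members (horizontal axis, percent) that passed limma as lower (orange, to the left) or higher (blue, to the right) with GLE1 siRNA for each of 39 gene lists, the number of members in brackets, with dotted lines at the shares over all genes (33.3% and 33.2%). Replication and mitotic genes reach 93.5% on the lower side, and p53 targets 75.9% on the higher side.

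Zinc finger genes, taken by their ZNF symbols, had the most tested members of any list and were mostly lower with GLE1 siRNA. Of 425 tested, 262 were lower (61.6%) and 61 higher, with a median of -0.37, and 73 were lower by at least 2-fold. Of the 411 well above background on all 6 arrays, 252 were lower and 60 higher. ZNF718, well above background on 1 of 3 GLE1 arrays, read 4.17, 3.86 and 3.99 against 7.17, 7.15 and 7.22 with control at 5.47, 5.74 and 5.71. ZNF678 and ZNF492 were not well above background on any GLE1 array, and were at least 6.12-fold and 5.09-fold lower. ZNF853 had the largest rise, at 3.10 ± 0.11. With normexp ZNF718, ZNF678 and ZNF492 were 2.47, 2.12 and 1.96-fold lower and ZNF853 4.46-fold higher. Against control the family's median was 0.878 with GLE1 siRNA and 1.12 with IPPK siRNA, on either side of it.

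Long intergenic and antisense RNAs had no direction as a class, with 126 of 389 higher and 120 lower (median 0.043, -0.27 under the spike-in scaling), shares of 32.4% and 30.8% that lie close to those over all genes. Over the 339 well above background on all 6 arrays, 103 were higher and 112 lower with a median of -0.0064. LINC00324 read 7.86, 8.04 and 8.07 against 4.96, 4.91 and 4.90 with control at 4.68, 4.37 and 4.57, and LINC00545, well above background on 1 of 3 IPPK arrays, read 6.19, 6.54 and 6.34 against 2.12, 4.06 and 3.72. SPATA3-AS1 was lower at -2.74 ± 0.076, and ZBED3-AS1, not well above background on any GLE1 array, was at least 5.05-fold lower. With normexp LINC00324 and LINC00545 were 3.54 and 2.03-fold higher and SPATA3-AS1 and ZBED3-AS1 3.93 and 1.93-fold lower.

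**Figure D5:**
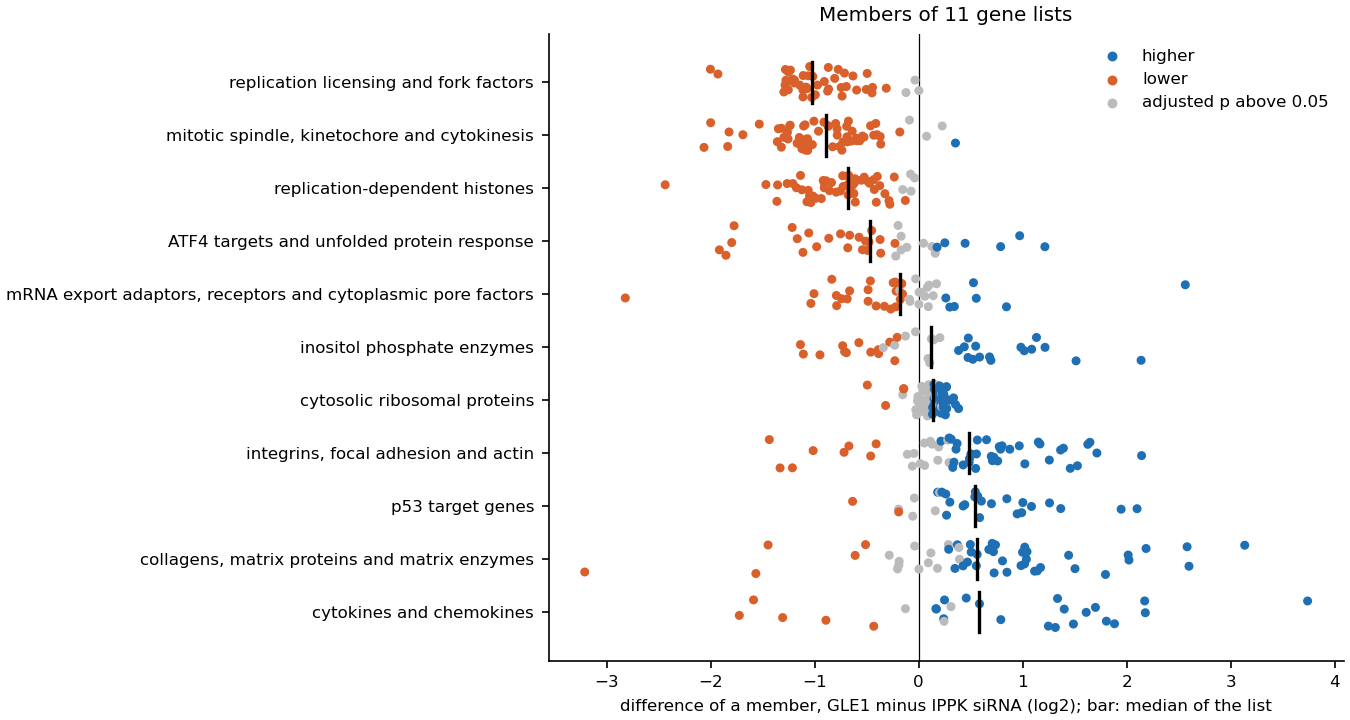
Difference of each measured member (points, GLE1 siRNA minus IPPK siRNA, log2) of 11 gene lists, with the median of the list as a black bar. Replication genes gather around their median of -1.02, cytosolic ribosomal proteins stay within -0.49 to 0.38, and the export and inositol lists hold the targets GLE1 (-2.82) and IPPK (2.14) at their ends.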

How the data were processed

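One-colour Agilent 4x44K arrays were hybridised with RNA of the U2OS cytoplasm, 3 for each of control, DBP5, GLE1 and IPPK siRNA. The authors deposited 1 scanner file an array, with the spot intensity after background subtraction by Agilent Feature Extraction (called the processed signal), and a table of log2 values that the authors normalised by LOESS, used here as an alternative only. No columns of per-sample values were left unused (0).

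Outlier spots (169 to 358 an array) and control spots were left out and spots of a probe averaged. Intensities were taken to log2 and normalised by cyclic loess over all 12 arrays. RefSeq symbols (GRCh38.p14 table) named 26445 of 34127 probes, and other probes kept the name in the file. A gene was represented by its brightest probe and tested if well above background on all 3 arrays of GLE1 or of IPPK siRNA. Genes MRPL35, NDRG1, SNX27 and TIMM10 lacked a value on 1 array, which their fits dropped.

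The test was limma (3.58.1, R 4.3.3) over all 12 arrays with 1 mean a group and the slide as a block, two-sided, and p-values of the 19997 genes were adjusted by Benjamini-Hochberg (threshold 0.05), checked on simulated data. A difference is given with its SE or with its 95% interval. The pairing comes from the labels, whose number marks the slide. Deviations from group means correlated at 0.422 to 0.505 between GLE1 and IPPK arrays of the same number and at -0.252 to -0.203 between those of other numbers.

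Named genes were the targets, DDX19A and DDX19B, the 12 largest rises and falls among genes well above background on all 12 arrays, up to 4 members of each of 39 lists, the 3 largest lower bounds each way and genes named in the study. Other list members were named after their values were seen, to show a list's exceptions or the roles within it. Some genes, such as RRM2B, CDKN1A, SLC7A11 and LOX, belong to several lists and are counted in each. The genes of the comparison and the lists were chosen with earlier results of these data known, and some genes of the rule are not reported here. Alternatives were other scalings (75th percentile, quantile, E1A spike-in), normexp with an offset of 50 on the median spot signal (the mean was not used here) and the table of the authors. Other filters and probe choices, no block, only the 6 arrays, each array left out and a paired t-test were also run. For the arrays the methods describe rank-product lists, which were not made here. Intensities carry no read depth, so the number of arrays limits the precision. Figures were drawn with matplotlib 3.10.9.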

Additional observations from a re-analysis of the deposited data

How the results depend on the processing

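The counts of 6644 genes higher and 6650 lower stayed within 1.5 times under every alternative run except the E1A spike-in scaling, which left 2533 higher. The counts past 2-fold, 1266 and 1446, became 696 and 2802 with the spike-in, 727 and 812 with normexp background and 719 and 789 with the processed values of the authors. Without the replicate block, that is without pairing by slide, 6119 genes were higher and 6328 lower, 1261 and 1444 past 2-fold, and among the genes named only CXCL1, IP6K3, MDM2 and SAMHD1 lost their call. Leaving out 1 array gave 5880 to 6387 higher and 6032 to 6409 lower, and 1244 to 1309 and 1411 to 1563 past 2-fold. Over genes well above background on all 6 arrays, an alternative chosen after seeing the data, 6120 were higher and 6388 lower, 1015 and 1275 past 2-fold. A paired t-test, which the methods name for statistics in general and not for the arrays, called 5980 higher and 6180 lower at an unadjusted p of 0.05. After Benjamini-Hochberg adjustment it called 4968 and 5317.

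Signs turned under the spike-in scaling for BAG3 (-0.0599), HIF1A (-0.0556), KRT18 (-0.0934), MYBL2 (-0.0277), NUP214 (-0.3045), NUP42 (-0.2545), NXF1 (-0.0943) and SAMHD1 (-0.1712). The medians of the BCL2 (-0.1549), interferon (-0.1939), TGF-beta (-0.0458), AP-1 (-0.2029), cholesterol (-0.1012), glycolysis (-0.1387), cytosolic ribosomal (-0.139), inositol phosphate (-0.2662), lysosome (-0.2476), NF-kappaB (-0.3651) and long non-coding (-0.2685) lists turned too. Among the other alternatives the hedgehog median changed sign in 10, NF-kappaB in 4, long non-coding in 3 and NRF2 in 2. Under the spike-in scaling GLI1, IP6K1, LOXL2, MALAT1, PPIP5K2, RBFOX3 and RPL34 lost their call, and CDK2 (-0.3988), IPMK and NUS1 passed as lower. By the mean of all probes NUP42 (-0.4807), SAMHD1 (-0.0369) and IP6K2 (0.6187) turned, and CDK2, which had not passed, ranged from -0.0484 to 0.0214 with 1 array left out, above 0 only without replicate 1 of GLE1 siRNA. The cause was not tested. Position on the slide and siRNA cannot be told apart, levels near background carry the least certain folds, and 3 arrays a group limit the precision.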
